A study of Mus musculus with 26 samples.

Results

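The 54 genes described here encode the non-collagen extracellular matrix: adhesive glycoproteins, thrombospondins, proteoglycans, elastic fibre and microfibril proteins, basement membrane proteins and the enzymes that crosslink matrix. They were taken as a named list, by symbol, and all 54 were found once among the 55341 genes of the count files. Their mRNA was measured by RNA-seq in 26 libraries of C2C12, a mouse myoblast line that fuses into myotubes when confluent cells are moved to differentiation medium. The study changed the amount of SMYD3, a lysine methyltransferase, to ask how it acts on myogenic differentiation, and sampled cells at confluence (0 h) and after 24 h in differentiation medium. In the knockdown arm, 18 libraries held C2C12 cells transfected with a control siRNA (siCtrl) or with siSMYD3#1 or siSMYD3#2, with 3 libraries for each siRNA at each time. The study's methods describe a pair of transfections, one in proliferating cells and another 24 h later, at the induction of differentiation. Whether cells harvested at 0 h had received the later one is not given in the sources used here. In the overexpression arm, 8 libraries held SMYD3 CL5, a single sub-cloned line that carries HA-Flag-tagged SMYD3 in the retroviral vector pREV, or control cells with empty pREV, with 2 libraries for each line at each time. The study's methods describe sub-cloning of the empty-vector cells too. A difference between SMYD3 CL5 and the vector cells can therefore be a difference of that 1 clone or of the control line. The study's methods call the replicates of a group biological, and the p-values measure the spread between these libraries.

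Extracellular matrix is laid down in layers with different parts. Fibronectin and matricellular proteins bind cells and tune their adhesion, small leucine-rich proteoglycans coat and space collagen fibrils, fibrillins, fibulins, emilins and latent TGF-beta binding proteins build microfibrils and elastic fibres, and lysyl oxidases crosslink collagen and elastin. Around a muscle fibre, laminins, nidogens and perlecan form a basement membrane that links the cytoskeleton to the matrix through dystroglycan and integrins, and mutations in Lama2, the alpha chain of the main muscle laminin, cause congenital muscular dystrophy.

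Knockdown libraries held 14315193 to 60398170 counts and overexpression libraries 21124675 to 67853386. Levels are CPM, the counts of a gene scaled to a common library size after TMM, a normalisation that aligns the bulk of genes between libraries. In every knockdown group 1 library was extracted with TRIzol and 2 with NucleoSpin columns, and values of a group are given in that order throughout. The TRIzol libraries also came from cells of lower passage, so extraction and passage cannot be told apart. The members differed strongly along this line: in siCtrl at 24 h, 15 of the 48 members tested were at least 2-fold higher in the TRIzol library than in the mean of the NucleoSpin libraries, and 11 were at least 2-fold lower. All tests in the knockdown arm therefore carry an extraction term, and folds are also given within each extraction. All overexpression libraries were TRIzol extractions.

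Smyd3 itself separated the siRNAs. In siCtrl cells Smyd3 was at 21.6, 20.5 and 19.5 CPM at 0 h and 20.7, 17.8 and 19.9 CPM at 24 h. In the siSMYD3#2 libraries it was at 6.37, 7.56 and 8.93 CPM at 0 h and 9.65, 5.46 and 5.37 CPM at 24 h, a fall that passed the test at both times (log2 fold change -1.41, adjusted p = 0.000107, and -1.51, adjusted p = 5.06e-05). The libraries labelled siSMYD3#1 had 19.0, 19.3 and 16.9 CPM at 0 h and 19.3, 15.2 and 15.1 CPM at 24 h, and the fall was not detectable (log2 fold change -0.16, adjusted p = 0.785, and -0.24, adjusted p = 0.414). The mRNA in these libraries thus does not bear out the label of siSMYD3#1, and each direction drawn from it below is that of the libraries so labelled. The study also followed the knockdown by qPCR of Smyd3 and by western blot of the protein, assays whose values were not read here. In SMYD3 CL5 the mouse gene was at 16.9 and 27.1 CPM at 0 h and 24.3 and 20.95 CPM at 24 h against 19.2 and 16.7, and 17.1 and 18.2 CPM with vector, which did not pass the test (adjusted p = 0.593 and 0.671). Whether reads of the transgene count toward the mouse gene is not given in the sources used here.

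The 19-base antisense strands of the siRNAs are printed because the siRNAs disagree on many members below. Capitals mark the seed, bases 2 to 8, through which an siRNA can also bind other transcripts.
siSMYD3#1: gUUGGGGUcacagcuguga
siSMYD3#2: uCAAAUCUucaaucaggcu
siCtrl: aCGUGACAcguucggagaa
The 3 seeds differ from each other. A full 19-base match to each of the 2 SMYD3 siRNAs was found in transcripts of 1 gene, Smyd3, and in 0 members. In the GENCODE transcript Smyd3-201, of 3360 bases, the match lay at bases 273 to 291 for siSMYD3#1 and at bases 883 to 901 for siSMYD3#2. The siCtrl strand had a full match in 0 genes.

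The cells carried myoblast markers. All 5 myoblast markers (Myod1, Myf5, Des, Cdh15, Chrna1) averaged at least 1 CPM in siCtrl at both times, and the summed level of 6 muscle differentiation markers rose from 5.78 to 7.51 CPM at 0 h to 422 to 1350 CPM at 24 h. Of 7 fibroblast markers, Thy1, Tcf21 and Dpp4 stayed below 0.5 CPM in every library of the groups checked, while Col1a1, Pdgfra and Pdgfrb were present, as they are in many mesenchymal cells. The seventh, Pi16, rose in siCtrl from 0.626, 1.21 and 0.943 CPM at 0 h to 15.4, 9.47 and 6.47 CPM at 24 h (log2 fold change 3.46, adjusted p = 1.34e-07). The defining endothelial markers Pecam1 and Cdh5, the leukocyte markers Ptprc, Adgre1 and Itgam, all 5 adipocyte markers and the bone markers Bglap and Ibsp were also below 0.5 CPM, and the bone and cartilage list was carried by Runx2 and Sox9. The leukocyte list was carried by Cd68, a lysosomal protein, at 4.77 CPM on average in siCtrl at 24 h, and the endothelial list by Kdr, at 0.0352 to 2.37 CPM there. The leukocyte marker Csf1r averaged 0.811 CPM in siCtrl at 0 h and 0.439 CPM at 24 h. The endothelial marker Tek rose in siCtrl from 0.148 CPM on average at 0 h to 0.905 CPM at 24 h (log2 fold change 2.40, adjusted p = 0.00763). In bulk libraries, fewer cells of a type and less RNA per cell cannot be told apart.

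Together the members made up 1.95% to 2.08% of all counts in siCtrl at 0 h and 2.38% to 2.67% at 24 h. The share was 3.82% to 4.23% in the libraries labelled siSMYD3#1 at 24 h and 3.10% to 3.88% in the siSMYD3#2 libraries at 24 h, with no overlap with siCtrl for either. Fn1, which encodes fibronectin, was the main contributor, at 5303, 12210.5 and 12035 CPM in siCtrl at 24 h. Vector cells went from 2.55% and 2.65% at 0 h to 4.08% and 3.65% at 24 h, while SMYD3 CL5 had 3.05% and 1.74% at 0 h and 4.05% and 2.52% at 24 h, so that the clone's own libraries lay further apart than the means of the lines.

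**Figure D1:**
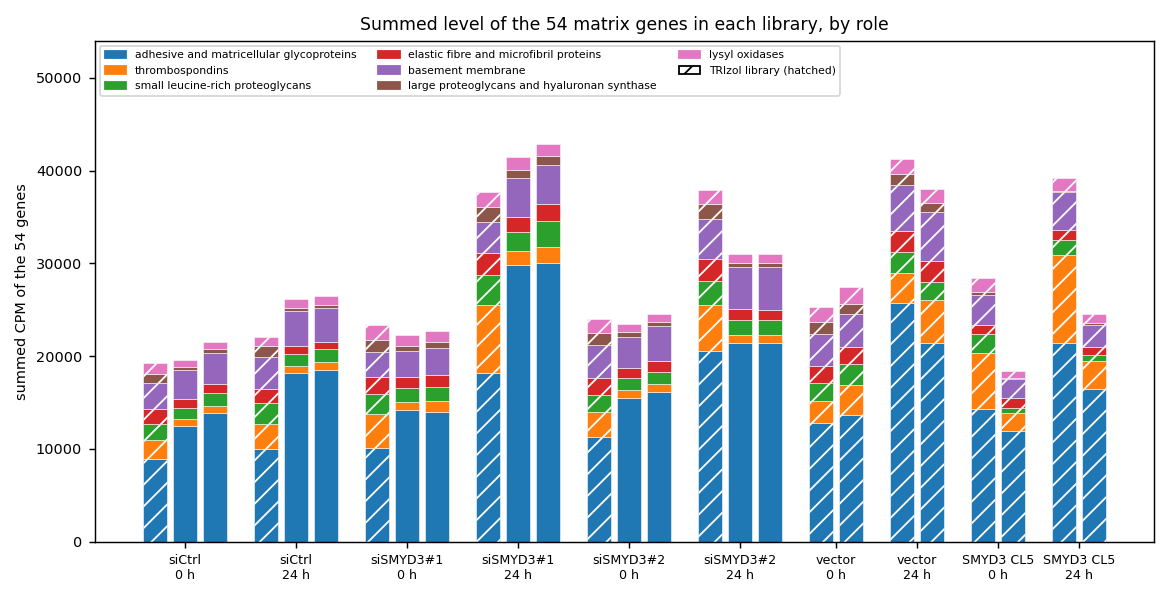
Summed CPM of the 54 members in each of the 26 libraries, stacked by role group, with hatched bars for TRIzol libraries. The libraries labelled siSMYD3#1 at 24 h sum to 37702.5 to 42862 CPM and the siCtrl libraries at 24 h to 22044 to 26454 CPM.

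Compared per length, as RPKM, which divides the CPM by the kilobases of exon, the members spanned a wide range in siCtrl at 0 h. Spp1, which encodes osteopontin, stood first at 1018 ± 84.0 RPKM (SD, n = 3). Its exons share 309 bases with another gene on the same strand, Gm42793, so its count is uncertain there. Fn1 followed at 567 ± 184 RPKM and Sparc, a collagen-binding matricellular protein, at 519 ± 63.8 RPKM, a pair whose difference lay within their spread. Then came the first members of other role groups, whose libraries overlapped one another: the proteoglycan Bgn (biglycan) at 165 ± 58.7 RPKM, Thbs1 (thrombospondin 1) at 153 ± 135 RPKM, the crosslinking enzyme Lox at 124 ± 61.7 RPKM and the basement membrane linker Nid1 (nidogen 1) at 123 ± 34.8 RPKM. The elastic fibre protein Efemp2 (fibulin 4), at 38.0 ± 8.97 RPKM, and the large proteoglycan Vcan (versican), at 30.9 ± 14.3 RPKM, were lower. At the other end Fbn2 and Acan had 0 counts in siCtrl at both times. Thbs4, Comp, Lum, Fbn2, Eln and Acan were too low to be tested in the knockdown arm, and Thbs4, Comp, Fbn2, Eln and Mfap4 in the overexpression arm, which left 48 and 49 members. By 24 h Sparc, at 863 ± 32.6 RPKM, and Fn1, at 843 ± 337 RPKM, stood above Spp1, at 324 ± 44.1 RPKM.

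In differentiating siCtrl cells the mRNA of members moved in both directions. Of the 48 members tested, 14 passed the test as higher at 24 h than at 0 h and 8 as lower (edgeR quasi-likelihood test, Benjamini-Hochberg adjusted p under 0.01 over all 15820 genes tested, also used for every adjusted p below from the knockdown arm). Over all genes 14.6% passed as higher and 14.8% as lower, so the share of members that fell was near the general one. The median log2 fold change was 0.33 for the members and 0.03 for all genes. By role, 7 of 10 adhesive and matricellular members rose and 1 fell, 2 of 13 elastic fibre members rose and 4 fell, and 2 of 9 basement membrane members rose and 0 fell. Of the others, 1 of 7 small leucine-rich proteoglycans rose, 2 of 4 lysyl oxidases rose and 1 fell, 1 of 3 thrombospondins fell, and of Vcan and Has2 only Has2 passed, as lower.

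Dcn, which encodes the fibril-coating proteoglycan decorin, went from 0.773, 2.71 and 1.95 CPM at 0 h to 22.4, 59.9 and 67.9 CPM at 24 h (log2 fold change 4.83, SE 0.23, adjusted p = 7.8e-11). Lama2 went from 8.17, 6.88 and 7.77 CPM to 47.2, 45.5 and 46.4 CPM (2.61, SE 0.15, adjusted p = 4.95e-10). Both rises were far wider than the spread of the libraries, and that of Lama2 was even across extractions. Dpt, which encodes dermatopontin, a binder of decorin and collagen, went from 0.957, 0.622 and 0.960 CPM to 2.29, 6.84 and 6.53 CPM (2.55, SE 0.39, adjusted p = 5.7e-05). Fibin went from 2.36, 6.40 and 6.94 CPM to 8.09, 34.3 and 34.2 CPM (2.19, SE 0.20, adjusted p = 1.98e-07). In both, the TRIzol library lay below the NucleoSpin libraries at 24 h but still above every library at 0 h. Mfap4, a microfibril-associated glycoprotein, had 0 to 1 counts per library at 0 h and 6 to 52 counts at 24 h. Its mean at 24 h was at least 10.4-fold higher when 3 counts per library are taken as the floor, which is 0.0905 CPM. The TRIzol library carried that mean: the levels at 24 h were 1.83, 0.614 and 0.392 CPM, so the bound does not hold for the NucleoSpin libraries. The other rises were of Tnxb, Postn, Nid2, Loxl2, Efemp1, Loxl1, Matn2, Sparc and Fn1, with log2 fold changes of 1.78 down to 0.55. Tnxb was the exception within extractions: it was 0.908-fold in the TRIzol libraries and 5.31-fold in the NucleoSpin libraries.

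Of the members that passed, Spp1 fell furthest, from 1820.5, 1544 and 1669.8 CPM to 537, 460.0 and 605 CPM (log2 fold change -1.64, SE 0.16, adjusted p = 4.25e-07). Has2, the main synthase of hyaluronan, fell from 249.8, 64.0 and 57.4 CPM to 75.5, 23.6 and 29.2 CPM (-1.38, SE 0.15, adjusted p = 2.06e-06). Within each extraction the 24 h libraries lay below the 0 h libraries, although the levels of Has2 differed more between extractions than between times. Ltbp2 fell from 103, 25.6 and 31.0 CPM to 66.6, 13.8 and 12.9 CPM (-0.92, SE 0.15, adjusted p = 6.08e-05). Fbln1, which encodes fibulin 1, fell from 69.2, 93.7 and 115 CPM to 41.0, 62.7 and 64.3 CPM (-0.73, SE 0.11, adjusted p = 2.44e-05). Lox fell from 930.2, 432 and 408 CPM to 582, 267 and 268 CPM (-0.66, SE 0.13, adjusted p = 0.000648), whereas its relatives Loxl1 (136, 159 and 199 to 263, 360.0 and 341 CPM) and Loxl2 (16.2, 135 and 141 to 28.2, 296 and 340.2 CPM) rose. The lysyl oxidase family thus moved in both directions. Fmod had a lower estimate than any of these, with 84.8, 52.5 and 70.6 CPM at 0 h and 59.6, 9.82 and 9.21 CPM at 24 h, but did not pass (-1.77, SE 0.56, adjusted p = 0.0231). Emilin2, Ltbp1 and Thbs3 completed the 8 that fell, and all 8 fell within both extractions. The rise of Fn1 (0.55, SE 0.15, adjusted p = 0.00828) was the least firm, since it lost its call in 14 of the 18 fits that left out 1 library, at 0.45 to 0.60, and with a replicate block, at 0.55. Tnxb lost its call without any of 3 NucleoSpin libraries (1.25 to 1.78), Efemp1 without the TRIzol library at 24 h (0.82) and Thbs3 without 1 NucleoSpin library at 24 h (-0.42). Without the extraction term 7 members passed in place of 22.

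**Figure D2:**
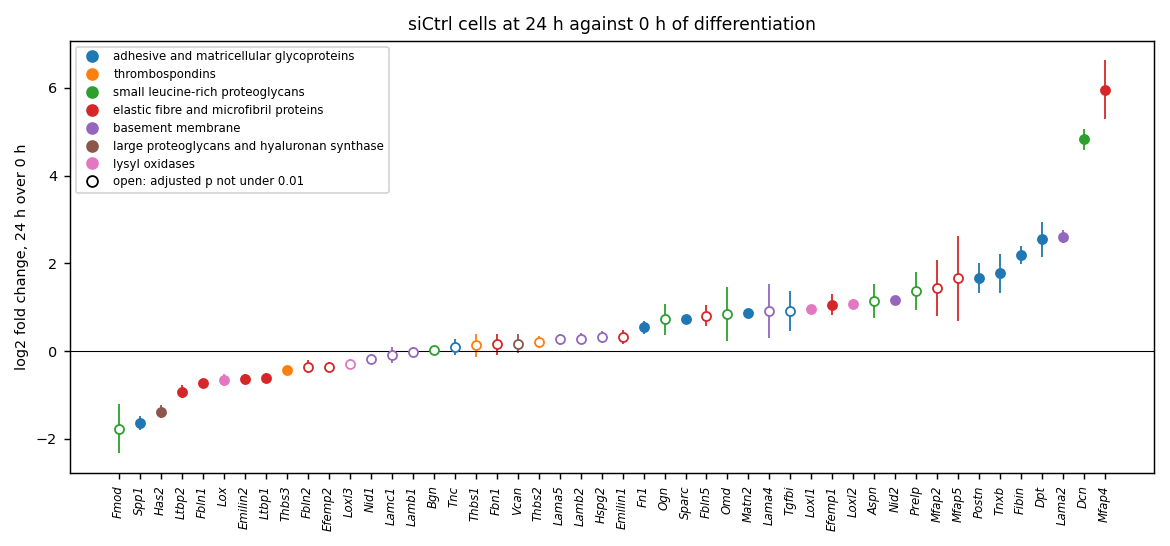
Log2 fold change of the 48 tested members in siCtrl cells, 24 h against 0 h, with bars of 1 SE, in order of log2 fold change and coloured by role. Filled points passed the test (14 higher, 8 lower) and open points did not. Dcn at 4.83 and Lama2 at 2.61 stand above most of the members, and Spp1 at -1.64 and Has2 at -1.38 are the lowest that passed.

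At 24 h, members were mostly higher in the libraries labelled siSMYD3#1 than in siCtrl, in cells whose Smyd3 mRNA was not detectably lower. Of 48 members tested, 16 were higher and 2 lower, against 2.91% and 2.94% of all genes, and the median log2 fold change was 0.46 for the members and 0.00 for all genes. The 16 came from all role groups but the basement membrane: 4 of 10 adhesive and matricellular members, 2 of 3 thrombospondins, 3 of 7 small leucine-rich proteoglycans, 5 of 13 elastic fibre members, Vcan and 1 of 4 lysyl oxidases. The 2 that were lower, Lama2 and Nid1, both belong to the basement membrane. All 18 had the same direction within the TRIzol and within the NucleoSpin libraries, and in all 18 the NucleoSpin libraries of the groups did not overlap. The calls were made on these same libraries with an extraction term, so this describes them and is no separate support. The same holds for directions within extractions in the other comparisons, and no share over all genes is given for them.

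Fmod, which encodes fibromodulin, a collagen-binding proteoglycan, was at 59.6, 9.82 and 9.21 CPM in siCtrl and at 266, 151 and 194 CPM in the libraries labelled siSMYD3#1 (log2 fold change 3.29, SE 0.58, adjusted p = 0.00297). That is 4.47-fold in the TRIzol libraries and 18.2-fold in the NucleoSpin libraries. Postn, which encodes periostin, a matricellular protein of remodelling tissue, was at 29.6, 123 and 129.5 CPM in siCtrl and at 144, 1232 and 1502 CPM (3.08, SE 0.34, adjusted p = 7.33e-05), 4.88-fold and 10.8-fold within the extractions. Tgfbi, an adhesive protein named for its induction by TGF-beta, was at 2.32, 1.18 and 1.18 CPM in siCtrl and at 6.71, 8.45 and 9.06 CPM (2.53, SE 0.43, adjusted p = 0.000745). Prelp, a proteoglycan that anchors basement membrane to collagen, was at 20.9, 5.43 and 4.90 CPM in siCtrl and at 47.4, 46.9 and 62.5 CPM (2.44, SE 0.41, adjusted p = 0.00155). In all 4 genes every library labelled siSMYD3#1 lay above every siCtrl library, and the fold was larger in the NucleoSpin libraries. Fbn1, which encodes the microfibril protein fibrillin 1, was at 682, 189.6 and 164 CPM in siCtrl and at 1267, 586 and 806 CPM (1.64, SE 0.24, adjusted p = 0.000516), where the TRIzol siCtrl library overlaps the NucleoSpin libraries of the other group. The remaining 11 (Thbs1, Fbln5, Lox, Vcan, Bgn, Fbln1, Fn1, Fbln2, Thbs3, Sparc and Ltbp1) had log2 fold changes from 1.43 down to 0.61. Among them, Fn1 was at 10179, 19738 and 19591 CPM against 5303, 12210.5 and 12035 CPM (0.77, SE 0.15, adjusted p = 0.0029), and Bgn at 2478, 1521 and 1916 CPM against 1479.6, 806 and 813 CPM (0.97, SE 0.10, adjusted p = 7.4e-06).

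Lama2 was at 17.0, 16.6 and 21.01 CPM in the libraries labelled siSMYD3#1, below the 47.2, 45.5 and 46.4 CPM of siCtrl (log2 fold change -1.35, SE 0.14, adjusted p = 6.27e-06). It was 0.361-fold in the TRIzol and 0.409-fold in the NucleoSpin libraries. Nid1 was at 308, 558 and 585 CPM against 413, 952 and 1002 CPM (-0.66, SE 0.11, adjusted p = 0.000563), lower within each extraction. Both genes are among the 21 members whose exons overlap those of an antisense gene, and the strand setting of the counting is not given in the sources used here. The limit also bears on members that were higher, namely Fbn1, Prelp, Thbs3, Fn1, Thbs1 and Lox. Of these Fbn1 shares most, 2442 of its 12128 exon bases. Among the most abundant members per length, Thbs1 was at 7011, 1071 and 1394 CPM against 2542, 445 and 479.7 CPM (1.43, SE 0.27, adjusted p = 0.00304), so that its levels differed more between extractions than between siRNAs. Vcan was at 1387, 799.5 and 941 CPM against 1142, 306 and 285 CPM (1.13, SE 0.22, adjusted p = 0.00335), and Lox at 1304, 632 and 642 CPM against 582, 267 and 268 CPM (1.22, SE 0.14, adjusted p = 1.09e-05). Efemp2 was at 193, 133 and 115 CPM against 122, 106 and 105 CPM and did not pass (0.37, SE 0.11, adjusted p = 0.0404). Dcn had 9.23, 41.8 and 52.4 CPM against 22.4, 59.9 and 67.9 CPM and did not pass (-0.67, SE 0.18, adjusted p = 0.0226).

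Other values moved with these. Myog, the transcription factor that marks the start of differentiation, was at 5.64, 19.8 and 17.2 CPM against 55.6, 222 and 262 CPM in siCtrl (log2 fold change -3.59, adjusted p = 5.4e-06), and the summed muscle differentiation markers were at 53.9 to 109 CPM against 422 to 1350 CPM. The summed fibroblast markers were at 1221 to 1920 CPM against 351 to 708 CPM, carried by Col1a1 (log2 fold change 2.103, adjusted p = 0.00024), with Thy1, Tcf21 and Dpp4 still below 0.5 CPM. Their part in the result was not tested. Of the 16 higher members, 7 calls were lost when 1 library was left out (Fmod at 3.01 to 3.08, Prelp at 2.14, Thbs1 at 1.31 to 1.48, Vcan at 0.94 to 1.10, Fbln5 at 1.05 to 1.13, Fbln2 at 0.60 to 0.80 and Fn1 at 0.62 to 0.74), with Prelp lost without either NucleoSpin siCtrl library at 24 h and Fmod lost without either of these or without replicate 3 of siSMYD3#1, a NucleoSpin library, at 24 h. The call of Lama2 was lost under 0 of 26 alternatives, while the count was 2 without the extraction term and 9 when all 26 libraries were fitted together.

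**Figure D3:**
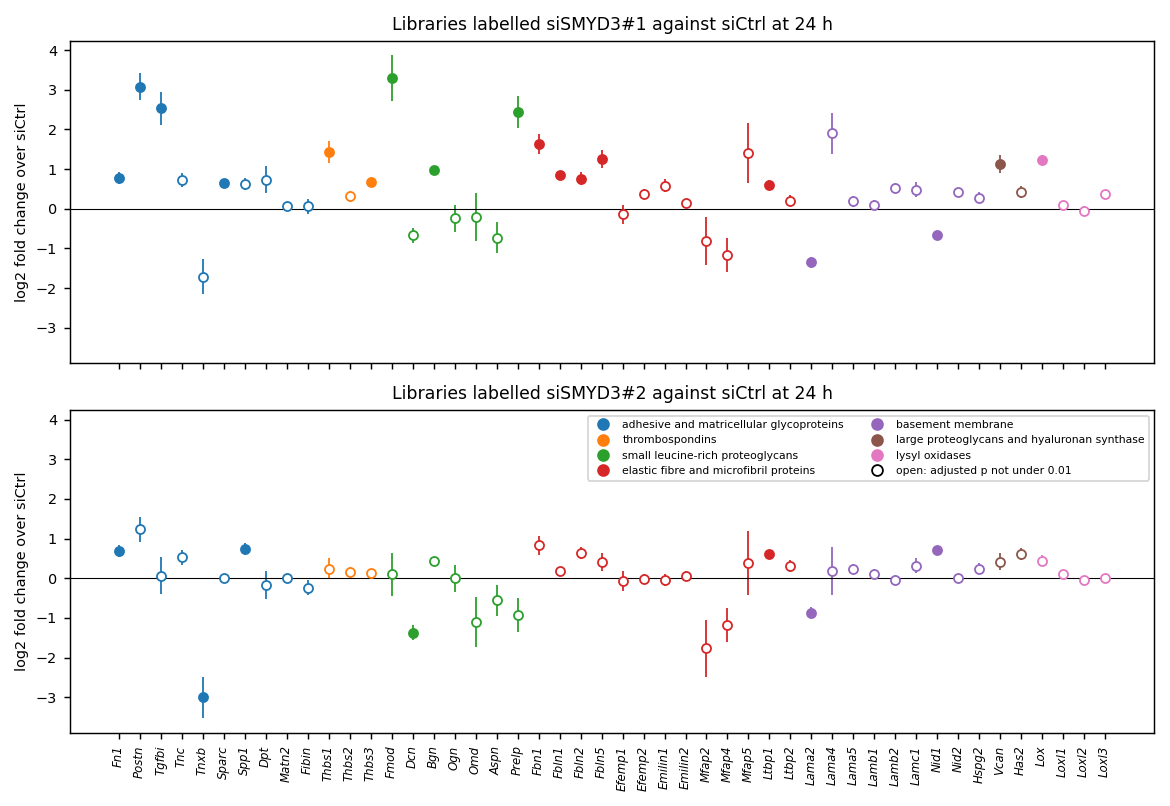
Log2 fold change against siCtrl at 24 h of the 48 tested members, by role group, for the libraries labelled siSMYD3#1 and for siSMYD3#2, with bars of 1 SE and filled points for members past the test. Fmod is at 3.29 in one and 0.10 in the other, and Nid1 at -0.66 and 0.71; both comparisons share the siCtrl libraries.

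The promoters of the 4 members with the largest rises are printed because they moved together, and because SMYD3 has been described as a factor that binds CCCTCC and GAGGGG. The sequences are from RefSeq (GRCm38.p6), 250 bases before to 50 after the annotated start, 5′ to 3′ on the gene's strand. Capitals mark matches to CCCTCC or GAGGGG on either strand, and the motifs overlap where GGAGGGG or CCCCTCC is written.
Fmod, chr1:134037004-134037303, plus strand, 4 matches: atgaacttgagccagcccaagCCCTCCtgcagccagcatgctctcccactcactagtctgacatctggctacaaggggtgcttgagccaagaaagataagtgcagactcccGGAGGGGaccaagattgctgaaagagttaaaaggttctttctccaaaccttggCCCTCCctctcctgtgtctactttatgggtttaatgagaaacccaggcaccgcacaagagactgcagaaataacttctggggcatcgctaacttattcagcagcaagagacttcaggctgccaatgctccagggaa
Postn, chr3:54360857-54361156, plus strand, 3 matches: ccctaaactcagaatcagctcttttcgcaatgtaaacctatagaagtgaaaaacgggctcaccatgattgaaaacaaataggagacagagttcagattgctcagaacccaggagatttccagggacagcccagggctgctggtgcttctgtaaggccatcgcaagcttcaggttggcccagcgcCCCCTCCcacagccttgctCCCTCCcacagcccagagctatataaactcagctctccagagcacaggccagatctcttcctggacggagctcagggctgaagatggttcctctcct
Tgfbi, chr13:56609336-56609635, plus strand, 6 matches: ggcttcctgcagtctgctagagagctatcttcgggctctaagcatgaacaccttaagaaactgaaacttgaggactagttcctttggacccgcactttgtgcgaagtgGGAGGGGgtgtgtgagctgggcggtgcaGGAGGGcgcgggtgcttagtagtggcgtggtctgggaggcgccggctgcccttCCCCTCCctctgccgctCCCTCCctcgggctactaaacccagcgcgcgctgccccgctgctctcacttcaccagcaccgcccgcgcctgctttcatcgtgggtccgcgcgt
Prelp, chr1:133921352-133921651, minus strand, 7 matches: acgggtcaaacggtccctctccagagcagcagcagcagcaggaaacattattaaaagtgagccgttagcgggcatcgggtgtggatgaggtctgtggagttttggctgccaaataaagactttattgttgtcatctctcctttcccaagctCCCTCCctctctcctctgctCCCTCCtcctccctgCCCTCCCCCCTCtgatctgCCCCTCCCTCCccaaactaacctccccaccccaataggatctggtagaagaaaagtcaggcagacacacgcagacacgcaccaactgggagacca
Postn has another promoter in the table, chr3:54359017-54359316, with 0 matches, which is not printed. Such short motifs are common. At least 1 match stood in 48.1% of all 32841 promoters of this length in the table and in 53.8% of those of protein-coding genes. Of the members, 36 had an entry, with 46 promoters, and 67.4% of these held a match. The share was 76.5% of the 17 promoters of members that were higher in the libraries labelled siSMYD3#1 and 62.1% of the 29 promoters of the others. These matches are a description of letters, and no binding was measured.

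siSMYD3#2, which lowered Smyd3 mRNA, moved fewer members. Against siCtrl at 24 h, 4 of 48 were higher and 3 lower, against 1.66% and 2.04% of all genes, with a median log2 fold change of 0.11 for the members and 0.00 for all genes. Those that were higher were Spp1, Nid1, Fn1 and Ltbp1, and those that were lower were Tnxb, Dcn and Lama2. All 7 had the same direction within both extractions.

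Dcn was at 9.65, 24.2 and 22.3 CPM with siSMYD3#2 against 22.4, 59.9 and 67.9 CPM in siCtrl (log2 fold change -1.38, SE 0.19, adjusted p = 0.000236), 0.430-fold in the TRIzol and 0.364-fold in the NucleoSpin libraries. Lama2 was at 33.2, 22.8 and 21.4 CPM against 47.2, 45.5 and 46.4 CPM (-0.86, SE 0.14, adjusted p = 0.00082). These are the proteoglycan and the laminin chain whose levels rose most in siCtrl among members present at 0 h, and with siSMYD3#2 both still stood above their 0 h levels. Tnxb, which encodes tenascin X, a large collagen-associated glycoprotein, was low throughout, at 0.235, 0.424 and 0.346 CPM against 0.668, 5.04 and 3.27 CPM (-3.00, SE 0.52, adjusted p = 0.00131). Nid1 was higher, at 644, 1547 and 1695 CPM against 413, 952 and 1002 CPM (0.71, SE 0.11, adjusted p = 0.000649), 1.56-fold and 1.66-fold within the extractions. Spp1 was at 1069, 745 and 899 CPM against 537, 460.0 and 605 CPM (0.74, SE 0.15, adjusted p = 0.00562), and Ltbp1, which holds latent TGF-beta in the matrix, at 202, 203 and 210.2 CPM against 177, 122 and 113 CPM (0.61, SE 0.11, adjusted p = 0.00168). Both lay above every siCtrl library.

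Fn1 was at 14087, 14906 and 14803 CPM against 5303, 12210.5 and 12035 CPM (0.69, SE 0.15, adjusted p = 0.0093). The TRIzol libraries gave 2.66-fold and the NucleoSpin libraries 1.23-fold. The call was lost with a replicate block (0.69), in the NucleoSpin libraries alone and in 14 of the 18 fits that left out 1 library, at 0.37 to 0.77. Calls were also lost for Spp1 at 0.66 to 0.69, Ltbp1 at 0.52 to 0.60, Tnxb at -2.90 to -2.47 and, without replicate 2 of siSMYD3#2, Lama2 at -0.78. With 1 library left out the count of 7 ranged from 3 to 10, the 3 being reached without replicate 2 of siCtrl or of siSMYD3#2 at 24 h, both NucleoSpin libraries, and it was 0 without the extraction term or with all 26 libraries fitted together. Myog was at 31.1, 48.6 and 45.2 CPM (log2 fold change -1.81, adjusted p = 0.00125) and the summed fibroblast markers at 366 to 787 CPM, which overlaps siCtrl, although Pi16 was lower, at 5.57, 4.49 and 2.71 CPM (-1.29, adjusted p = 0.00627). Their part in the result was not tested.

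The members that rose most in the libraries labelled siSMYD3#1 gave other values with siSMYD3#2, in comparisons that share the siCtrl libraries. Fmod was at 66.6, 11.1 and 7.85 CPM with siSMYD3#2 (log2 fold change against siCtrl 0.10, adjusted p = 0.951). Tgfbi was at 2.00, 2.06 and 0.750 CPM (0.06, adjusted p = 0.964). Prelp was at 8.71, 3.76 and 3.46 CPM (-0.92, adjusted p = 0.229), and Postn at 90.5, 246 and 223 CPM (1.23, adjusted p = 0.0334). None of these 4 passed, although Postn was above siCtrl within each extraction. The members called in both comparisons had log2 fold changes, siSMYD3#1 first, of -1.35 and -0.86 for Lama2, 0.77 and 0.69 for Fn1, 0.61 and 0.61 for Ltbp1 and -0.66 and 0.71 for Nid1.

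Tested directly against each other at 24 h, the siRNAs differed in 11 members. In the libraries labelled siSMYD3#1, 10 of 48 were higher than with siSMYD3#2 and 1 was lower, against 2.05% and 1.31% of all genes, and the median log2 difference was 0.38 for the members and -0.01 for all genes. The proteoglycans Prelp (3.36, SE 0.43, adjusted p = 0.00046) and Fmod (3.19, SE 0.58, adjusted p = 0.00567) and the adhesive proteins Tgfbi (2.47, SE 0.43, adjusted p = 0.00189) and Postn (1.85, SE 0.33, adjusted p = 0.00432) differed most. Lox, Fbln1, Sparc, Lamb2, Bgn and Thbs3 followed at 0.78 down to 0.55. Nid1 was the 1 lower member, at -1.37 (SE 0.11, adjusted p = 2.24e-06), with 308, 558 and 585 CPM in one and 644, 1547 and 1695 CPM in the other. All 11 kept their direction within both extractions. Lama2 was lower with both siRNAs and differed between them by -0.49 (SE 0.14, adjusted p = 0.0397), short of the threshold. Of the other abundant members, Thbs1 was at 4813, 369 and 416 CPM with siSMYD3#2, Vcan at 1449.8, 418 and 401 CPM and Efemp2 at 131, 105 and 96.9 CPM, and none of the 3 passed between the siRNAs. With 1 library left out the 11 became 4 to 13, with 5 and 6 without replicate 2 or 3 of siSMYD3#1 and 6 and 4 without replicate 1 or 2 of siSMYD3#2, all NucleoSpin libraries at 24 h. The calls lost for at least 1 library were those of Fmod at 2.82 to 3.21, Tgfbi at 2.23 to 2.28, Postn at 1.58 to 1.82, Lox, Bgn, Thbs3 and Lamb2, of which Lamb2 was also lost with a replicate block (0.55), while Prelp lost its call under 0 of 26 alternatives.

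**Figure D4:**
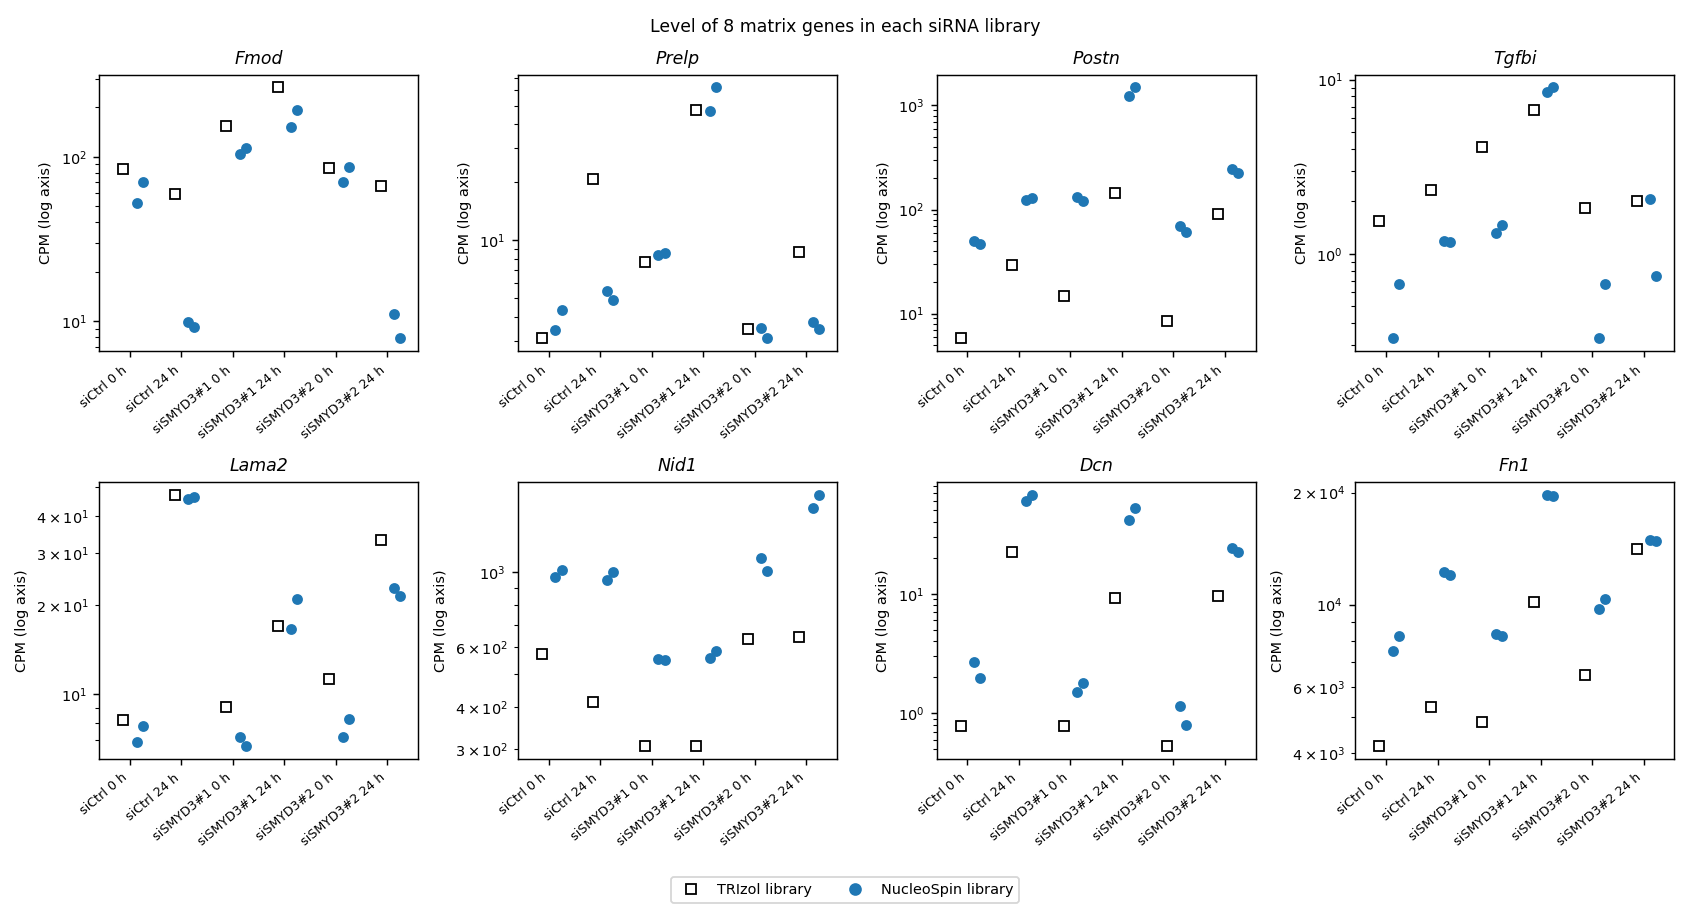
CPM of Fmod, Prelp, Postn, Tgfbi, Lama2, Nid1, Dcn and Fn1 in each of the 18 knockdown libraries, on a log axis, with open squares for TRIzol and filled circles for NucleoSpin libraries. At 24 h Fmod is at 266, 151 and 194 CPM in the libraries labelled siSMYD3#1 and at 66.6, 11.1 and 7.85 CPM with siSMYD3#2.

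Before differentiation few members passed the test with either siRNA. In the libraries labelled siSMYD3#1, 1 of 48 was higher than in siCtrl at 0 h and 1 lower, against 0.575% and 0.853% of all genes. Lox was at 1390.4, 758 and 827 CPM against 930.2, 432 and 408 CPM (log2 fold change 0.81, SE 0.13, adjusted p = 0.00174), and Nid1 at 307, 556 and 551 CPM against 574, 968 and 1013 CPM (-0.86, SE 0.11, adjusted p = 0.000189). Each had the same direction at 24 h, and Smyd3 mRNA in these libraries was not detectably lower. The call of Lox at 0 h was lost without any of 4 libraries, at 0.72 to 0.80. With siSMYD3#2 at 0 h, 0 members passed by edgeR, against 0.316% of all genes higher and 0.215% lower, and 0 passed by DESeq2. At an unadjusted p under 0.05, 7 were higher and 2 lower, counts for which no share over all genes is given. Dcn was at 0.531, 1.16 and 0.8004 CPM against 0.773, 2.71 and 1.95 CPM there (-1.06, SE 0.29, adjusted p = 0.103).

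Whether an siRNA acted differently at 24 h than at 0 h was tested as an interaction. For the libraries labelled siSMYD3#1, 1 member passed, against 0.215% of all genes. Lama2 was at 9.03, 7.16 and 6.67 CPM in these libraries at 0 h, close to siCtrl, and below it at 24 h, so that its log2 difference from siCtrl was 1.35 lower at 24 h (interaction -1.35, SE 0.21, adjusted p = 0.00324). The call was lost in 7 of the 18 fits that left out 1 library, at -1.34 to -1.29. For siSMYD3#2, 0 members passed by edgeR, against 0.019% of all genes, and 1 passed by DESeq2. At an unadjusted p under 0.05, 2 were higher and 2 lower. The share of all genes is given only for the adjusted edgeR test. Lama2 had an interaction of -1.06 (SE 0.20, adjusted p = 0.0428).

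A few matrix mRNAs were far lower in the SMYD3 CL5 clone than in the vector line. At 24 h, 4 of 49 members were lower than with vector and 0 higher by edgeR (adjusted over 17835 genes tested), against 0.589% and 0.376% of all genes. At an unadjusted p under 0.05, 22 were lower and 4 higher, and DESeq2 called 16 lower and 3 higher. No share over all genes is given for either setting, and the shares above do not apply to them. The median log2 fold change was -0.72 for the members and 0.01 for all genes. Of the 4, 2 are adhesive members, 1 is a small leucine-rich proteoglycan and 1 is an elastic fibre member.

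Emilin2, which encodes an elastic fibre interface glycoprotein, was at 85.4 and 78.0 CPM with vector and at 0.515 and 0.368 CPM in SMYD3 CL5 (log2 fold change -7.47, SE 0.45, adjusted p = 0.000803). Bgn was at 1227 and 1182 CPM with vector and at 37.0 and 37.9 CPM in the clone (-5.01, SE 0.41, adjusted p = 0.00161). Dpt was at 16.6 and 21.2 CPM against 0.763 and 0.645 CPM (-4.73, SE 0.34, adjusted p = 0.00103), and Fibin at 10.5 and 9.74 CPM against 0.870 and 1.15 CPM (-3.34, SE 0.38, adjusted p = 0.00573). In these genes the gap between the lines was many times the spread between their libraries. Lama4, a laminin chain of vessel and fat basement membrane, had 0 counts in all 4 SMYD3 CL5 libraries, against 11 to 23 counts with vector at 0 h and 53 to 60 at 24 h, which makes it at least 6.49-fold and at least 10.9-fold lower, and it did not pass the test at either time (adjusted p = 0.0492 and 0.0337). Calls from 2 libraries a group rest on each of them: without either SMYD3 CL5 library at 24 h the count was 0, without either vector library at 24 h it was 1, and without either SMYD3 CL5 library at 0 h it was 15.

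Several members with wide differences did not pass. Tgfbi was at 3.35 and 2.30 CPM with vector and at 0.0888 and 0.184 CPM in the clone at 24 h (log2 fold change -4.48, SE 0.66, adjusted p = 0.0146). Vcan was at 1147 and 876 CPM against 147 and 178 CPM (-2.64, SE 0.61, adjusted p = 0.0677), and Fbn1 at 1204 and 1144 CPM against 484 and 277 CPM (-1.63, SE 0.35, adjusted p = 0.0557). Lama2 went the other way, at 26.6 and 20.7 CPM with vector and 112 and 88.1 CPM in the clone (2.08, SE 0.43, adjusted p = 0.0481). The clone's own libraries disagreed on some members, such as Postn at 205 and 858 CPM and Thbs1 at 9166 and 2521 CPM at 24 h.

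At 0 h, 2 of 49 members were lower in SMYD3 CL5 and 1 higher, against 0.606% and 0.465% of all genes. Emilin2 was at 101 and 77.2 CPM with vector and at 1.49 and 0.717 CPM in the clone (log2 fold change -6.33, SE 0.42, adjusted p = 0.0011), and Bgn at 1227 and 1397 CPM against 18.3 and 38.2 CPM (-5.54, SE 0.42, adjusted p = 0.00165). Lama2 was higher in the clone, at 144 and 56.8 CPM against 8.38 and 7.15 CPM (3.70, SE 0.46, adjusted p = 0.00782). The clone at 0 h thus held more Lama2 mRNA than vector cells after 24 h of differentiation, although its 2 libraries differed. Myog was also higher in the clone at 0 h, at 15.9 and 81.9 CPM against 0.283 and 0.535 CPM (6.86, adjusted p = 0.00885), and at 24 h the muscle differentiation markers summed to 995 to 1032 CPM against 30.8 to 42.7 CPM. The summed fibroblast markers at 24 h were at 206 to 259 CPM against 929 to 939 CPM. The sum was carried by Col1a1 (14.2 against 556 CPM on average) and Pdgfrb (193 against 358 CPM), and neither passed the test (adjusted p = 0.0126 and 0.108). Pdgfra was not lower (21.3 against 16.0 CPM), and Pi16 was close to vector (3.17 against 3.31 CPM). The part of Myog and of these markers in the results was not tested. The count of 3 at 0 h was 0 without either vector library at 0 h, and 15 and 6 without replicate 1 or 2 of SMYD3 CL5 at 0 h, and the call of Lama2 was lost in 6 of the 8 fits that left out 1 library, at 3.58 to 3.87.

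**Figure D5:**
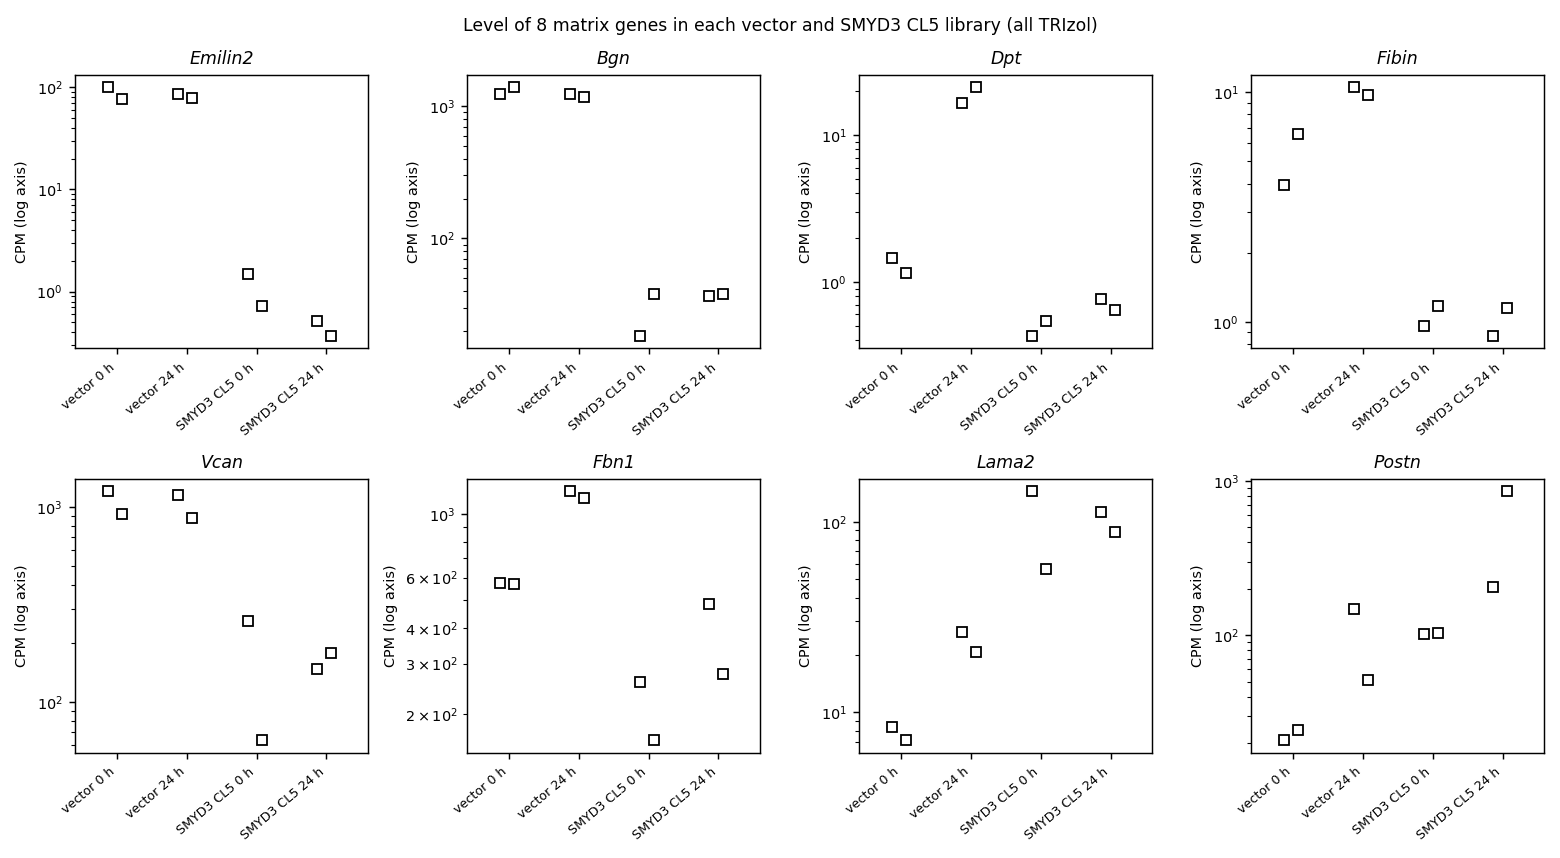
CPM of Emilin2, Bgn, Dpt, Fibin, Vcan, Fbn1, Lama2 and Postn in each of the 8 overexpression libraries, on a log axis. Bgn is at 37.0 and 37.9 CPM in SMYD3 CL5 at 24 h against 1227 and 1182 CPM with vector, while Lama2 is higher in the clone, at 112 and 88.1 CPM against 26.6 and 20.7 CPM.

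Differentiation of vector cells gave 0 called members by edgeR, against 0% of all genes in either direction. DESeq2 called 5, and at an unadjusted p under 0.05 12 members were higher and 3 lower. For these counts no share over all genes is given. Dpt, at 1.44 and 1.14 CPM at 0 h and 16.6 and 21.2 CPM at 24 h, came nearest to the threshold (log2 fold change 3.87, SE 0.33, adjusted p = 0.031). Dcn was at 8.48 and 3.97 CPM, and then 97.8 and 66.5 CPM (3.73, SE 0.63, adjusted p = 0.279). These were also among the widest rises in siCtrl cells. The interaction of line and time gave 0 members by edgeR, against 0% of all genes. By DESeq2 it gave 1, and at an unadjusted p under 0.05 0 were higher and 4 lower, again without a share over all genes. Dpt was 0.429 and 0.538 CPM in SMYD3 CL5 at 0 h and 0.763 and 0.645 CPM at 24 h, an interaction of -3.32 (SE 0.46, adjusted p = 1).

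Matrix genes outside the list were also read, from 54 genes of the same families. Of the 33 tested in the knockdown arm, 7 were higher and 3 lower in siCtrl at 24 h than at 0 h, 7 higher and 1 lower in the libraries labelled siSMYD3#1 against siCtrl at 24 h, and 3 higher and 2 lower with siSMYD3#2. The shares over all genes in these comparisons were 14.6% and 14.8%, 2.91% and 2.94%, and 1.66% and 2.04%. Lamb3, a laminin beta chain, was higher with both (log2 fold change 1.88 and 1.00), and Npnt, which encodes the basement membrane protein nephronectin, was lower with both (-0.84 and -1.48). Matn3, a matrilin, was higher with siSMYD3#2 (1.98, adjusted p = 0.00119). Of 39 tested in the overexpression arm at 24 h, Smoc2 was higher in SMYD3 CL5 (3.04, adjusted p = 0.00856) and Has1, another hyaluronan synthase, was lower (-1.87, adjusted p = 0.0069). Over all genes 0.376% were higher there and 0.589% lower.

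Many of the members are targets or carriers of TGF-beta, so 30 genes of that pathway were read beside them. Of 29 tested, 5 were higher and 5 lower in siCtrl at 24 h than at 0 h, when 14.6% and 14.8% of all genes were, with the ligand Tgfb2 (log2 fold change 1.52) and the receptor Tgfbr2 (1.13) higher and the target Ccn2 (-1.69) and the pseudoreceptor Bambi (-2.07) lower. In the libraries labelled siSMYD3#1 at 24 h, 6 were higher than in siCtrl and 0 lower, against 2.91% and 2.94% of all genes, among them Lrrc32 (1.86) and Itgb8 (1.601), which hold or activate latent TGF-beta, Ccn2 (1.54) and the co-receptor Tgfbr3 (0.89). With siSMYD3#2, Ccn2 was higher (1.13, adjusted p = 0.00203) and the ligand Tgfb3 lower (-0.60, adjusted p = 0.00016). In SMYD3 CL5 at 24 h, 2 of 29 were lower and 0 higher, against 0.589% and 0.376% of all genes. Tgfbr3 was at 0.817 and 1.15 CPM against 29.9 and 34.3 CPM with vector (-5.06, adjusted p = 0.00289), and Nrep was at 0.479 and 0.737 CPM against 46.0 and 50.6 CPM (-6.37, adjusted p = 0.000562).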

How the data were processed

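The authors sequenced poly(A) RNA of C2C12 cells as paired-end, strand-specific libraries, checked reads with FastQC 0.11.5, aligned them to GRCm38 with HISAT2 2.1.0 and deposited counts per gene from featureCounts (Subread 1.6.3). The strand setting, the treatment of multiply aligned reads and the annotation release are not given in the sources used here. The deposited values are raw counts for 55341 Ensembl genes in each of 26 libraries, and symbols were taken from GENCODE M21, which matched 54495.

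Counts were tested with edgeR 4.0.16 in R 4.3.3 (quasi-likelihood F-test, robust, after filterByExpr and TMM). The 18 knockdown libraries were fitted as 6 groups with extraction as a covariate and the 8 overexpression libraries as 4 groups, and Benjamini-Hochberg adjustment ran over all 15820 and 17835 genes tested, with calls at an adjusted p under 0.01. SE was the log2 fold change divided by the square root of F. The common dispersion was 0.0159 and 0.0903, so differences in the overexpression arm were less precise. RPKM used summed exon length. For fold bounds, a group with at most 3 counts in every library was set to a floor of 3 counts per library, which covers counting error only. Depth limits the precision of low genes such as Mfap4 and Lama4.

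Alternatives were DESeq2 1.42.0, RLE size factors, no low-count filter, an adjusted p under 0.05, each library left out in turn, no extraction covariate, NucleoSpin libraries only, all 26 libraries in 1 fit and a replicate block. The labels give no replicate numbers, so replicates are named in accession order. The block used the numbers of the study's sample table, in which 3 marks the TRIzol library of every knockdown group. Deviations of libraries with the same such number correlated at 0.412 to 0.851 in the knockdown arm. Since 3 is always the TRIzol library, these correlations cannot tell a pairing of libraries from extraction. Once extraction was removed, the deviations correlated at -0.457 to 0.304, over 0.1 in all pairs only for siSMYD3#2 at 0 h. In the overexpression arm they correlated at -0.097 to 0.145. The members, the other gene lists and the markers were chosen with earlier results of these data known. Values in each library are given for the 5 called members with the largest log2 fold change in each direction in the siCtrl time course and in each treatment at 24 h, and for the highest member per length of each role group. The test script was tested on simulated data. Sequences came from the study's siRNA list and from RefSeq promoters.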

Additional observations from a re-analysis of the deposited data

Results flagged for a closer look

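Lama2 was picked out because its difference from siCtrl changed with time in the libraries labelled siSMYD3#1: the interaction was -1.35 (SE 0.21, adjusted p = 0.00324, edgeR). It was at 9.03, 7.16 and 6.67 CPM at 0 h against 8.17, 6.88 and 7.77 CPM in siCtrl, and at 17.0, 16.6 and 21.01 CPM at 24 h against 47.2, 45.5 and 46.4 CPM. With siSMYD3#2 the interaction was -1.06 (SE 0.20, adjusted p = 0.0428), in the same direction.

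Nid1 was picked out because the siRNAs moved it in opposite directions at 24 h, and the direct comparison of the libraries labelled siSMYD3#1 with siSMYD3#2 gave -1.37 (SE 0.11, adjusted p = 2.24e-06). Its levels were 308, 558 and 585 CPM in the one, 644, 1547 and 1695 CPM in the other and 413, 952 and 1002 CPM in siCtrl. Nid1 was already lower in the libraries labelled siSMYD3#1 at 0 h (-0.86, SE 0.11, adjusted p = 0.000189).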

How the results depend on the processing

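Of 1683 results for single members under an alternative, 1452 kept their direction and call, 231 kept the direction but lost the call, and 0 changed direction. Of these, the 68 at an adjusted p under 0.05 came from the main fit and could not lose a call. Many fits that left out 1 library dropped one outside the groups compared, which themselves kept all their libraries. Both points also hold for the alternatives counted above for Lama2 and Prelp. Counts of called members, in the order siSMYD3#1 at 24 h (18), siSMYD3#2 at 24 h (7), siSMYD3#1 at 0 h (2), siSMYD3#1 against siSMYD3#2 (11) and siSMYD3#1 interaction (1), fell without the extraction term to 2, 0, 0, 1 and 0, and the siCtrl time course fell from 22 to 7. With an adjusted p under 0.05 they were 28, 13, 4, 20 and 3, and with no low-count filter 29, 17, 11, 19 and 13. All 26 libraries in 1 fit gave 9, 0, 0, 4 and 0. DESeq2 gave 12, 4, 17 and 3 from the second on, and the NucleoSpin libraries alone gave 9, 22 and 8 from the third on. The siSMYD3#2 interaction (0) gave 1 at 0.05, 1 by DESeq2, 4 with no filter and 2 in the NucleoSpin libraries, and siSMYD3#2 at 0 h (0) gave 3 with no filter. SMYD3 CL5 at 24 h (4), SMYD3 CL5 at 0 h (3) and the vector time course (0) gave 11, 7 and 1 at 0.05, 19, 15 and 5 by DESeq2, 19, 16 and 7 with no filter, and 19, 15 and 6 with all 26 libraries. The interaction of line and time (0) gave 1 by DESeq2 and 1 with no filter. No share over all genes is given for these settings, so a change in a count cannot be read as particular to the members. The causes were not tested.

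With 1 library left out, the counts ranged from 20 to 23 for the siCtrl time course, 12 to 20 for siSMYD3#1 and 3 to 10 for siSMYD3#2 at 24 h, 1 to 4 and 0 to 0 at 0 h, 4 to 13 between the siRNAs, 0 to 3 and 0 to 1 for the interactions, 0 to 15 for SMYD3 CL5 at 24 h and at 0 h, 0 to 2 for the vector time course and 0 to 0 for the interaction of line and time. Where this left 1 library in an arm, that library was assumed to vary like the other groups. The replicate block kept all 18 calls of siSMYD3#1 and 6 of the 7 of siSMYD3#2 at 24 h, and lost Fn1 in the siCtrl time course and with siSMYD3#2 and Lamb2 between the siRNAs, and it changed no other call of a member.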
